A study of Mus musculus with 5 samples.

Results

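The genes described here encode the constant regions of mouse antibodies. There are 10 of them among the 46983 genes counted: the heavy chain genes Ighm, Ighd, Ighg3, Ighg1, Ighg2b, Ighg2c and Igha, and the light chain genes Igkc, Iglc1 and Iglc2. They were chosen with their values in these libraries already known, so their levels and differences between groups are given as a description, without a test. RNA was sequenced from cells labelled as macrophages sorted from orthotopic EO771 tumours in C57/BL6 mice, where EO771 is a mammary carcinoma line of the mouse. The labelled sort was for CD45+ CD11b+ Ly6G- F4/80+ cells. In 2 libraries, called Treg-ablated, diphtheria toxin had been given as 2 doses, each of 50 µg per kg, to remove regulatory T (Treg) cells, with sorting on day 4. The other group, with 3 control libraries, came from tumours left untreated, so Treg cell loss and the toxin as such cannot be told apart. The labels give no allele that makes Treg cells sensitive to the toxin, no age, and no statement that each library is from its own animal. Any p-value below is therefore set against a spread between libraries that may be technical only.

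Library totals ran from 13122668 to 20156835 counts. Levels are CPM (counts per 1e+06 of the scaled library size), given as mean ± SD over the 3 control or the 2 Treg-ablated libraries, and 3 counts correspond to between 0.1502 and 0.226 CPM. Foxp3, the gene that marks Treg cells, had 1 and 5 counts in the Treg-ablated and 3, 9 and 3 in the control libraries, which is too few to check the ablation. The genes of the sort gate were present at a summed level of 48.8 to 56.6 CPM over Ptprc, Itgam and Adgre1 in all 5 libraries, and Ly6g had at most 3 counts in any library. Within that sum, Adgre1, which encodes the F4/80 of the gate, fell by 0.74 on the log2 scale, from 9.72 ± 0.162 to 5.83 ± 0.137 CPM (edgeR adjusted p = 0.00275). Ptprc and Itgam did not pass the test (edgeR adjusted p = 0.0655 and 0.0922). The fibroblast and matrix genes Col1a1, Col1a2, Col3a1 and Fn1 summed to between 17270 and 22270 CPM, far above the gate genes in libraries labelled as sorted macrophages. Which other cells the sorted fractions held was not tested, and this bears on every value below. Summed levels of 4 T cell markers were 18.9 to 20.8 CPM in Treg-ablated and 5.71 to 7.66 CPM in control libraries. For 5 B cell markers the sums were 7.63 to 12.5 and 3.36 to 4.60 CPM, and Ms4a1, which encodes CD20, was the 1 marker of the 5 at 0 in all controls. The largest part of each control sum was Pax5, at 2.15 to 2.65 CPM, against 2.71 and 5.28 CPM in Treg-ablated libraries. Pax5 and Cd79a, named after their values were seen, did not pass the test (edgeR adjusted p = 0.0748 and 0.0845).

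An antibody is built from heavy and light chains, and the constant region of the heavy chain sets its class, or isotype. Immature B cells carry IgM, from Ighm, and mature naive B cells carry both IgM and IgD, from Ighm and Ighd on a single long primary transcript. After activation, class switch recombination joins the rearranged variable segment to a constant gene further along the locus, which gives IgG, IgE or IgA, and the chosen gene depends on cytokines such as IFN-γ, IL-4 and TGF-β. Light chains are of the kappa type, from Igkc, or the lambda type, from the Iglc genes, and kappa predominates in mice. Plasma cells, which secrete antibody, hold far more immunoglobulin mRNA than resting B cells. Macrophages are not of the B cell lineage that makes antibody, and bind it through Fc receptors.

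On GRCm38 the heavy chain genes lie on the minus strand of chromosome 12 in the order Ighm (chr12:113418558-113422730), Ighd, Ighg3, Ighg1, Ighg2b (chr12:113302965-113307933), Ighg2c (chr12:113285325-113288932) and Igha (chr12:113254830-113260236). Ighg2c is the gene that C57BL/6 mice carry in place of Ighg2a. Ighg2b and Ighg2c are the most alike of the 4 IgG genes, with 86.3% identical bases over 1002 aligned coding bases, against 76.1% to 78.5% for the other 5 pairs. Their first exons, which encode the first constant domain, are shown because these 2 genes carry most of the IgG counts below and must be told apart by their reads. Each is 291 bases long, at chr12:113288642-113288932 for Ighg2c and chr12:113307643-113307933 for Ighg2b, written 5′ to 3′ on the minus strand, and capitals mark the 36 bases that differ.
Ighg2c: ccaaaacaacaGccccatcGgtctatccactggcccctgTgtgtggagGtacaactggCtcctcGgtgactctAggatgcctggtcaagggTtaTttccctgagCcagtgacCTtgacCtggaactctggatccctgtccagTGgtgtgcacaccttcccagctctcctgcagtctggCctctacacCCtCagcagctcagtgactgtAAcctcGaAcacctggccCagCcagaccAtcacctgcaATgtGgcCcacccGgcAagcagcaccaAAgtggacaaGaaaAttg
Ighg2b: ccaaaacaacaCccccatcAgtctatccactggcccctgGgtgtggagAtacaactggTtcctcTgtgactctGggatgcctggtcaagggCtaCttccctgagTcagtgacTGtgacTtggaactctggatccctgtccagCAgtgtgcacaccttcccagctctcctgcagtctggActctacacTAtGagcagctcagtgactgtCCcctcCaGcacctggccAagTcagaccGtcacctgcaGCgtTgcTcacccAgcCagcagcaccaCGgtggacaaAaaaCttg
The second exon, which encodes the flexible hinge, is shown for the 4 IgG genes because it differs between them in length and sequence. It is at chr12:113329844-113329882 in Ighg1, chr12:113307261-113307326 in Ighg2b, chr12:113288263-113288325 in Ighg2c and chr12:113360529-113360576 in Ighg3. Capitals here mark bases that lie in no run of 12 bases found in another constant region gene.
Ighg1: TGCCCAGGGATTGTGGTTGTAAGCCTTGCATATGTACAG
Ighg2b: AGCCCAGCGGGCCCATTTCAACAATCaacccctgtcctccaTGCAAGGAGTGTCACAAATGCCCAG
Ighg2c: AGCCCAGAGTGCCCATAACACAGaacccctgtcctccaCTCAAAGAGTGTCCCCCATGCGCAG
Ighg3: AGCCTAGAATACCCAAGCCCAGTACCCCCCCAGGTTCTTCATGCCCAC
The hinge exons of Ighg1 and Ighg3 hold no such shared run, and Ighg2b and Ighg2c share the 15 bases in lower case. Reads were 125 bases long, and no run of 125 bases in the transcripts of any constant region gene was found in those of another. Short matches are more common: 25.3% of the different 20-base words of Ighg2c and 14.5% of those of Ighg2b occur in another constant gene, against 0% for Ighm, Ighd, Igha and Igkc. How many reads of Ighg2b and Ighg2c were assigned to the other gene was not tested.

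Among the lambda genes on chromosome 16, Iglc2 and Iglc3 have 96.5% identical coding bases, and Iglc1 and Iglc2 have 74.8%. The first 150 aligned coding bases of each are shown because the low lambda counts depend on telling them apart. They are on the minus strand at chr16:19061922-19062071 for Iglc1, chr16:19198703-19198852 for Iglc2 and chr16:19065532-19065681 for Iglc3. Capitals mark bases of Iglc1 that differ from Iglc2, and bases of Iglc2 and Iglc3 that differ between these 2.
Iglc1: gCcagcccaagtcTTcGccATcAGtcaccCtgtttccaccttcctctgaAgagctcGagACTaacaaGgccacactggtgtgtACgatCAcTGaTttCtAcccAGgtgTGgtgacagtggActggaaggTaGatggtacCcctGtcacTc
Iglc2: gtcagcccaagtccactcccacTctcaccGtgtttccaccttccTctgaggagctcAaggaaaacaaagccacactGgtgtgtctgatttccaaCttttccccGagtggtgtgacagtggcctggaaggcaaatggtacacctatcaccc
Iglc3: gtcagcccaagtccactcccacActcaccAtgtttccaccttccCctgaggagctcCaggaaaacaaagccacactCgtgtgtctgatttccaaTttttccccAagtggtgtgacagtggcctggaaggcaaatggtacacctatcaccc
Iglc1 differs from Iglc2 at 34 of the 150 bases, while Iglc2 and Iglc3 differ at 7. How many reads of Iglc2 and Iglc3 were assigned to the other gene was not tested.

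In the Treg-ablated libraries 9 of the 10 genes were above all control libraries, and Igha alone was below all of them. Among the 14580 genes that passed the filter on low counts, 26.9% had both Treg-ablated libraries above all controls and 25.6% had both below. As the genes were chosen on this contrast, nothing is read from their count. The filter kept 8 of the 10 and left out Ighg3 and Iglc2. Both are among the 9, so the shares over filtered genes are not on the same basis. Throughout, more cells of a type and more RNA per cell cannot be told apart.

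Ighm, the constant region of IgM, was counted 256 and 350 times after ablation (replicates 1 and 2) and 29, 51 and 26 times in the controls (replicates 1 to 3). Its level was 2.11 ± 0.395 CPM in control and 21.3 ± 7.26 CPM in Treg-ablated libraries. The ratio of summed counts, each over the summed scaled library size, was 9.66, with a 95% interval of 7.85 to 11.99 that covers counting error only, as do all intervals below. The groups did not overlap, and the lowest Treg-ablated library, at 16.1 CPM, stood well above the highest control, at 2.55 CPM. Ighd, for IgD, followed at far lower counts, with 12 and 24 against 0, 2 and 1. Its ratio was 20.3 with an interval of 6.41 to 103. The fitted log2 fold change of Ighd, 4.19 (SE 0.710), was 3.48 without Treg-ablated replicate 2 and 4.88 without control replicate 2.

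The IgG genes were close to absent from the controls and made up the largest isotype class after ablation. Ighg2c had 307 and 309 counts in Treg-ablated libraries and 2, 12 and 5 in controls. That is 0.361 ± 0.234 CPM in control and 21.3 ± 2.80 CPM in Treg-ablated libraries, a ratio of 54.8 (interval 34.8 to 91.6). The fitted log2 fold change of Ighg2c was 5.76 (SE 0.248), and 6.42 without control replicate 2, which holds 12 of the 19 control counts. Ighg2b had 228 and 239 counts against 16, 9 and 10. Its level was 0.741 ± 0.314 CPM in control and 16.2 ± 2.58 CPM in Treg-ablated libraries, a ratio of 22.55 (interval 15.98 to 32.8).

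Ighg1 had 46 and 11 counts after ablation and 0 in each control. With the control group set to a floor of 3 counts in all, it was at least 32.1-fold higher. The bound for Ighg1 was 47.6-fold with Treg-ablated replicate 1 alone and 13.6-fold with replicate 2 alone. Ighg3 also had 0 in every control, and after ablation 1 count in replicate 1 and 25 in replicate 2. It was at least 14.65-fold higher against the same floor. Nearly all Ighg3 counts came from Treg-ablated replicate 2, and without that library a single count is left. Of the 7 exons of Ighg3 in GENCODE M21, 4 were counted in the deposited files, and those of its membrane form were not. Summed over the 4 genes, IgG counts were 18, 21 and 15 in controls and 582 and 584 after ablation, which is 1.10 ± 0.0930 and 40.4 ± 5.204 CPM. The ratio was 36.5 (interval 27.8 to 48.9).

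Igha, for IgA, the main antibody class of mucosal surfaces and milk, ran the other way. It had 219 and 214 counts in Treg-ablated and 328, 371 and 351 in control libraries. Its level was 21.7 ± 2.95 CPM in control and 14.97 ± 1.65 CPM in Treg-ablated libraries, a ratio of 0.697 (interval 0.622 to 0.780), or 1.435-fold higher in controls. The highest Treg-ablated library, at 16.1 CPM, was below the lowest control, at 18.6 CPM. The fitted log2 fold change was −0.53 (SE 0.1325) and lay between −0.64 and −0.42 over all alternative fits. Leaving Igha aside, the heavy chain genes summed to 3.26 ± 0.400 CPM in control and 62.9 ± 13.2 CPM in Treg-ablated libraries, a ratio of 18.7 (interval 15.96 to 22.1). With Igha included, the ratio was 3.12.

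**Figure D1:**
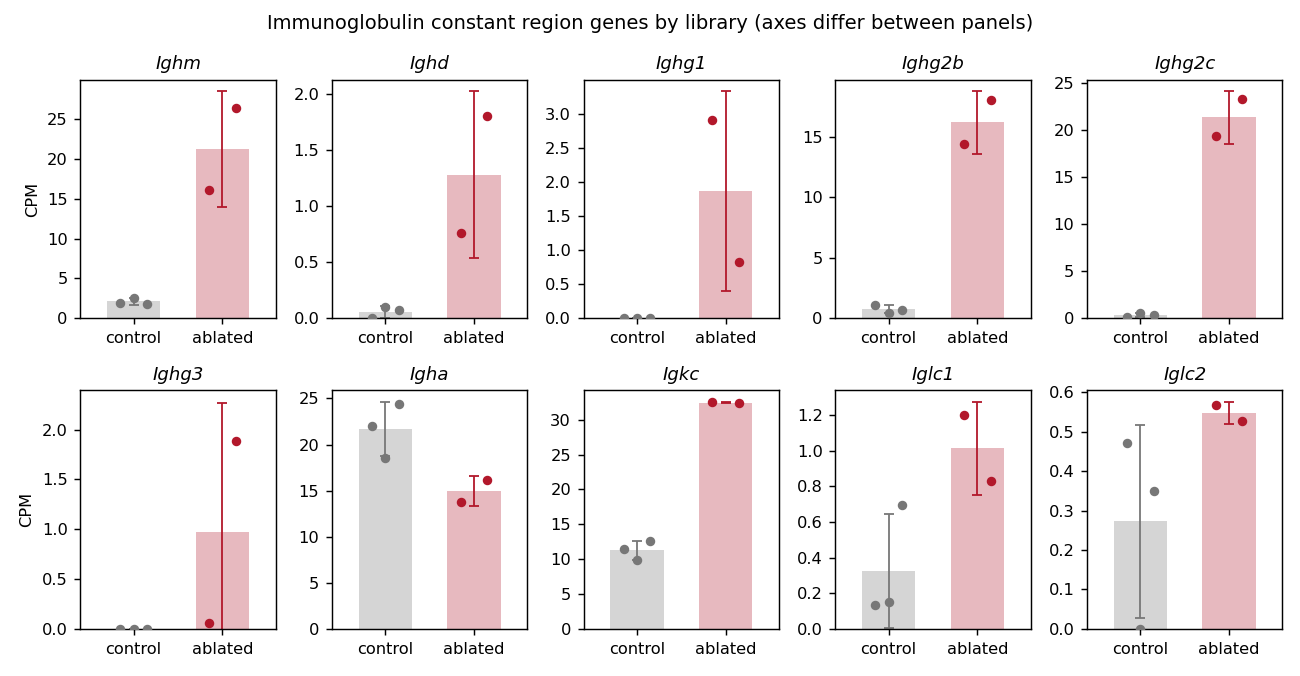
Level of each constant region gene in CPM by library; points are libraries, bars group means and error bars 1 SD (n = 3 control, n = 2 Treg-ablated), and the axes differ between panels. Igha is the 1 panel with the control points on top, and the 2 Treg-ablated points lie far apart for Ighg1 and Ighg3.

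Igkc, the kappa light chain constant region and the most abundant of these genes per length, had 516 and 429 counts after ablation and 170, 197 and 181 in controls. Its level was 32.5 and 32.4 CPM in the Treg-ablated libraries, and 11.4, 9.87 and 12.6 CPM in the controls. The ratio was 2.91 (interval 2.62 to 3.24). The 2 Treg-ablated libraries were nearly equal, and both stood above all controls.

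The lambda genes were near the limit of counting. Iglc1 had 19 and 11 counts against 2, 3 and 10, a ratio of 3.38 (interval 1.76 to 6.76). Control replicate 3 decides how large this is: the fitted log2 fold change of Iglc1 was 1.72 (SE 0.573) and 2.78 without that library, and 2.73 with the replicate number as a block. Iglc2 had 9 and 7 counts against 7, 0 and 5, a ratio of 2.25 whose interval of 1.0 to 5.22 reaches 1. Iglc1 and Iglc2 together made up 5.15% and 4.03% of light chain counts after ablation, and 5.03%, 1.5% and 7.65% in controls. This lambda share leaves out Iglc3, which had 3 and 3 counts against 0, 3 and 0. The 2 groups overlap in this share, and at these counts a difference between them was not detectable.

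**Figure D2:**
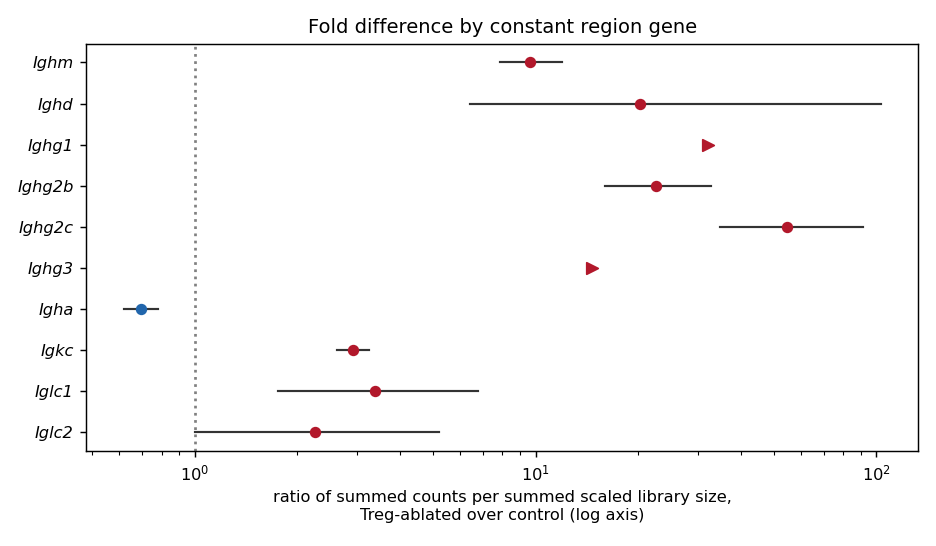
Ratio of summed counts over summed scaled library size, Treg-ablated over control, on a log axis; lines are 95% intervals for counting error, and triangles are lower bounds for the 2 genes with 0 control counts. Ratios run from 0.697 for Igha through 2.91 for Igkc to 54.8 for Ighg2c, and the dotted line marks equal levels.

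The make-up of the heavy chain counts also differed between the groups. In controls, Igha made up 87.5%, 83.4% and 89.3% of the heavy chain counts, with exact Clopper-Pearson 95% intervals that together span 79.6% to 92.2%. After ablation it made up 20.5% and 18.3% (intervals spanning 16.1% to 23.0%). The IgG genes took 4.80%, 4.72% and 3.82% in controls, and 54.4% and 49.8% after ablation. Ighm took 7.73%, 11.5% and 6.62% in controls, and 23.95% and 29.9% after ablation. In each of the 3 classes the Treg-ablated libraries lay outside the range of the controls.

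Among the heavy chain counts that are not Igha, Ighm was the largest part in controls, and the IgG genes together were after ablation. Ighm made up 61.7%, 68.9% and 61.9% of these in controls and 30.1% and 36.5% after ablation. Ighg2c made up 4.26%, 16.2% and 11.9% in controls, out of only 47, 74 and 42 counts, and 36.1% and 32.3% after ablation, out of 850 and 958. The counts of Ighg2c per count of Ighg2b were 0.125, 1.33 and 0.5 in controls, each from a handful of reads, and 1.35 and 1.29 after ablation. Dividing counts by exon length, which is 1326 bases for Ighg2c and 2678 for Ighg2b as counted, raised the share of Ighg2c in heavy chain counts from 28.7% and 26.4% to 41.4% and 37.1%. The shares of Igha per length were 84.3%, 77.4% and 85.8% in controls and 14.7% and 12.8% after ablation.

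**Figure D3:**
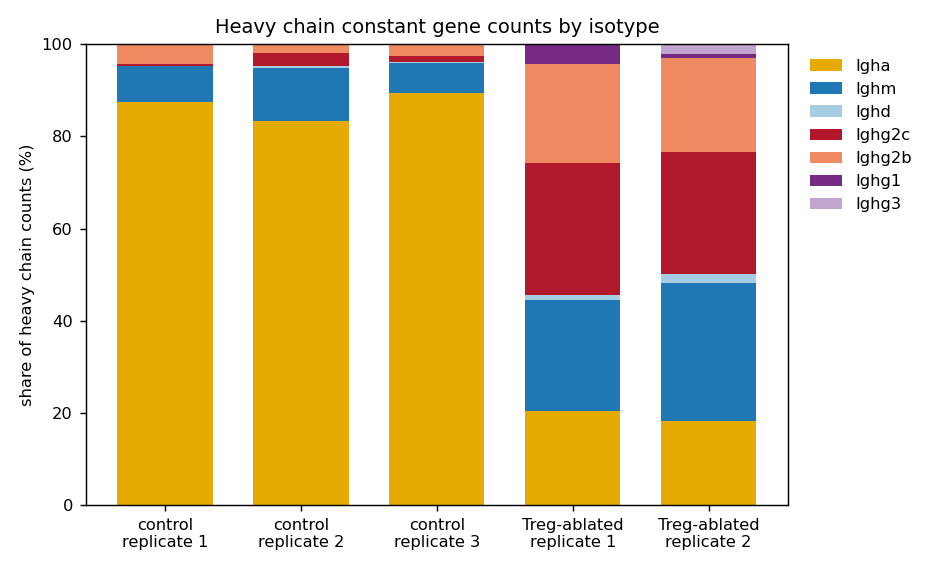
Share of heavy chain constant gene counts taken by each gene, in percent, for each library. Igha fills between 83.4% and 89.3% of the 3 control bars and 18.3% to 20.5% of the 2 Treg-ablated bars, where Ighg2c, Ighg2b and Ighm each take more than Igha.

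The balance of light and heavy chains differed much less than the isotypes. Light chains made up 33.7% and 27.6% of all counts of the 10 genes after ablation and 32.3%, 31.0% and 33.3% in controls. The groups overlap in this measure. Per length of exon, light chains stood at 1.835 and 1.34 times the heavy chain sum after ablation and 2.3, 2.099 and 2.415 times in controls, which do not overlap. Without Igha there were 0.640 and 0.467 light chain counts per heavy chain count after ablation, against 3.81, 2.70 and 4.67 in controls. Igha counts per Igkc count were 1.93, 1.88 and 1.94 in the controls, and 0.424 and 0.499 after ablation. All 3 controls thus had more Igha than Igkc counts, and both Treg-ablated libraries fewer.

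On the scale of CPM per kilobase of exon, which divides by the length as counted, Igkc was highest in both groups, at 21.2 in control and 61.0 in Treg-ablated libraries. In controls Igha came next at 8.13, with no library overlap with Igkc or with Ighm, the next below at 1.12. From Ighm downwards, through Iglc1 (0.721), Iglc2 (0.446), Ighg2b (0.277) and Ighg2c (0.272), the libraries of neighbours overlapped, and Ighd was at 0.0298. In Treg-ablated libraries the order was Igkc, Ighg2c (16.1), Ighm (11.3), Ighg2b (6.05), Igha (5.61) and Iglc1 (2.23). Each of these was apart from its neighbour in both libraries, except Ighg2b and Igha, which overlapped. Ighg3, Iglc2, Ighg1 and Ighd followed at 0.676 to 0.901 and overlapped each other. The order on this scale depends in part on which exons were counted. Ighg2c and Ighg2b have 1004 and 1007 coding bases, but counted lengths of 1326 and 2678 bases. Before division by length, Ighg2c and Ighm were alike in Treg-ablated libraries, at a mean of 21.3 CPM each, and the counted length of Ighm is 1886 bases.

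The 2 Treg-ablated libraries also differed from each other. Their difference is given with counting intervals, which leave out the ordinary spread between libraries. The ratio of replicate 2 to replicate 1 was 1.64 for Ighm (interval 1.39 to 1.93), 2.39 for Ighd (1.15 to 5.25) and 29.9 for Ighg3 (4.90 to 1228). Ighg1 went the opposite way and was 3.495 times as high in replicate 1 (interval 1.78 to 7.48). The ratio of replicate 2 to replicate 1 was 1.25 for Ighg2b (interval 1.042 to 1.51) and 1.204 for Ighg2c (1.025 to 1.415). It was 1.17 for Igha (0.964 to 1.418) and 0.995 for Igkc (0.873 to 1.133), and these intervals include 1. With 1 library on each side these ratios have no replicate check.

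The variable segments, which are joined to these constant regions, were also counted. The 185 heavy chain segments summed to 19.6 and 22.6 CPM after ablation and 10.4, 9.76 and 12.5 CPM in controls. The 160 kappa segments summed to 27.4 and 31.5 CPM against 14.2, 11.7 and 12.96 CPM. Both sums were above all controls in both Treg-ablated libraries. The 3 lambda segments overlapped between groups, with 1.39 and 2.72 CPM against 1.008, 0.451 and 2.02 CPM. Among the other constant region genes, Ighe, for IgE, and Iglc4 had 0 counts in all 5 libraries. Iglc3 had 3 and 3 counts against 0, 3 and 0. Igll1, part of the surrogate light chain of B cell precursors, had 1 count in control replicate 3 and 0 elsewhere.

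Other genes of antibody production were examined in 8 lists that hold 110 genes passing the filter. These were tested with edgeR's quasi-likelihood F test over all 14580 genes, with Benjamini-Hochberg adjustment. Of the 110, 28 were higher after ablation (25.5%) and 17 lower (15.5%), against a background of 13.5% higher and 12.3% lower over all genes tested. Some of the 28 passed the low-count filter only through the Treg-ablated libraries, among them Cd22, Cd79b, Bank1, Ms4a1 and Mzb1. Such genes could hardly be called lower, so their calls and p-values are a description and not independent support. Their median log2 fold change was 0.10, against −0.01 over all genes. DESeq2 called 14 of the 28, did not call 7 and gave no adjusted p for the other 7, which have low counts. Without control replicate 2 the calls were 14 higher and 7 lower, and over all genes they fell from 1971 to 812 higher and from 1787 to 554 lower. Without Treg-ablated replicate 2 there were 10 lower.

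Among genes of the B cell receptor complex, 4 of 15 tested were higher and 4 lower, with a median log2 fold change of 0.13. Cd22, an inhibitory co-receptor of B cells, rose 10.3-fold from 0.165 ± 0.0393 to 1.76 ± 0.174 CPM (edgeR adjusted p = 0.000494). Cd79b, a signalling chain of the receptor, rose 5.74-fold from 0.259 ± 0.0464 to 1.58 ± 0.540 CPM (edgeR adjusted p = 0.00231). Pik3ap1, an adaptor of this pathway that myeloid cells also express, fell by 0.91 on the log2 scale (SE 0.194, edgeR adjusted p = 0.00787). Named after their values were seen, Bank1, a B cell scaffold protein, was also called higher, and the signalling genes Cd72, Plcg2 and Syk were also called lower. For the 4 higher genes of this list DESeq2 gave no adjusted p. With Treg-ablated replicate 2 left out there were 2 lower calls, as with control replicate 1 or 2 left out.

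In the list of B cell identity genes 4 of 14 were higher and the others did not pass, with a median log2 fold change of 0.56. Ms4a1 had 11 and 23 counts against 0 in all controls (edgeR adjusted p = 0.00293), and passed the filter through the Treg-ablated libraries alone. Cd24a, a surface protein of B cells and many other cells, rose 1.56-fold to 8.58 ± 0.0802 CPM (edgeR adjusted p = 0.00551). Ebf1 and Cxcr5 passed narrowly. Ebf1, a B cell transcription factor that stromal cells also use, had 31.5 ± 0.527 CPM in controls and a log2 fold change of 0.28 (edgeR adjusted p = 0.0195). Its call was lost without Treg-ablated replicate 1 (edgeR adjusted p = 0.0746), Treg-ablated replicate 2 (0.0590) or control replicate 2 (0.0925), with the replicate block (0.136) and in DESeq2 (DESeq2 adjusted p = 0.0963). Cxcr5, the receptor that guides B cells to follicles, had a log2 fold change of 0.86 (edgeR adjusted p = 0.0272). Its call was lost without Treg-ablated replicate 1 (edgeR adjusted p = 0.241), control replicate 1 (0.0663) or control replicate 2 (0.0751) and in DESeq2 (DESeq2 adjusted p = 0.1435). Without control replicate 2 this list had 2 higher genes, DESeq2 called 1, and edgeR called 8 of 19 with the looser filter of 1 count in any library.

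Of 27 plasma cell and secretion genes, 11 were higher and 2 lower, with a median log2 fold change of 0.23. Many of the secretion genes act in cells of every kind, so these calls are not particular to plasma cells. Hspa5 and Hsp90b1, both called higher, had 967 ± 11.0 and 707 ± 26.1 CPM in controls. Both are named after their values were seen, as is Xbp1, which did not pass (edgeR adjusted p = 0.0749). Mzb1, a chaperone of antibody assembly in B and plasma cells, rose 4.825-fold from 0.391 ± 0.0354 to 1.91 ± 0.388 CPM (edgeR adjusted p = 0.00147). Jchain, which links the units of polymeric IgM and IgA, rose 2.05-fold from 4.96 ± 0.946 to 10.1 ± 0.8425 CPM (edgeR adjusted p = 0.00206). Jchain was thus above all controls in both Treg-ablated libraries while Igha was below them. Sec11c, a subunit of the signal peptidase, rose 1.43-fold (edgeR adjusted p = 0.00325). Sdc1, a plasma cell surface marker that epithelial and tumour cells also carry, fell by 0.42 on the log2 scale (SE 0.0700, edgeR adjusted p = 0.00261). With 339 ± 13.5 CPM in controls it dominated the plasma cell marker sum of Jchain, Mzb1, Xbp1, Sdc1 and Prdm1, which was 396.5 to 432 CPM after ablation and 495 to 541 CPM in controls. DESeq2 called 5 of this list higher, and edgeR called 6 when replicate 2 of either group was left out.

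Among genes of class switching and its DNA repair, 5 of 20 tested were lower by edgeR, and 0 were higher at an adjusted or an unadjusted p or in DESeq2, with a median log2 fold change of −0.07. Supt5, a transcription elongation factor, fell by 0.30 on the log2 scale (edgeR adjusted p = 0.008145), and Nhej1, an end-joining factor, fell by 0.52 (edgeR adjusted p = 0.0117). Atm, the kinase that senses DNA breaks, fell by 0.65 (edgeR adjusted p = 0.0163), and Apex1, a base excision enzyme, fell by 0.31 (edgeR adjusted p = 0.0256). The other gene that fell was Prkdc, a kinase of end joining, named after its values were seen. The lower calls numbered 1 without control replicate 2, 2 without Treg-ablated replicate 1 and 3 without Treg-ablated replicate 2 or with the replicate block. Without control replicate 2 the edgeR adjusted p was 0.0553 for Nhej1, 0.0728 for Atm and 0.1255 for Apex1. Without Treg-ablated replicate 1 the edgeR adjusted p was 0.0611 for Atm and 0.0692 for Apex1, and without Treg-ablated replicate 2 it was 0.0502 for Nhej1 and 0.0581 for Apex1. With the replicate block the edgeR adjusted p was 0.07375 for Supt5 and 0.0502 for Apex1. Many of these repair genes act in cells of every kind.

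Of 8 germinal centre genes 2 were higher and 1 lower, with a median log2 fold change of 0.35. Bcl6, the master transcription factor of germinal centre B cells that other cells also express, rose 1.45-fold to 23.5 ± 1.35 CPM (edgeR adjusted p = 0.00483). Fas, a death receptor, rose 1.57-fold (edgeR adjusted p = 0.007765), and did not pass without control replicate 2 (edgeR adjusted p = 0.0528). S1pr2, a receptor that keeps B cells in the germinal centre, fell by 0.24 on the log2 scale (edgeR adjusted p = 0.0282). It did not pass without Treg-ablated replicate 1 or 2 or without control replicate 2 or 3, with an edgeR adjusted p of 0.0641 to 0.112, or with the replicate block (edgeR adjusted p = 0.226). Cd86, a co-stimulatory ligand, had a log2 fold change of 0.54 and did not pass (edgeR adjusted p = 0.0782). It passed without Treg-ablated replicate 2 (edgeR adjusted p = 0.01945) and with the looser filter of 1 count in any library (edgeR adjusted p = 0.0347).

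Among cytokines and receptors of B cell help, 4 of 15 were higher and 1 lower, with a median log2 fold change of 0.18. Ifng, the cytokine known to favour switching to IgG2c, rose 3.90-fold from 0.798 ± 0.0430 to 3.10 ± 0.434 CPM (edgeR adjusted p = 0.000791). Il4 and Tgfb1, for IL-4 and TGF-β, are named after their values were seen and did not pass. Their log2 fold changes were 0.44 and −0.11 (edgeR adjusted p = 0.200 and 0.315). Whether any of these cytokines has a part in the isotype values was not tested. Il6, a plasma cell growth factor, rose 1.74-fold (edgeR adjusted p = 0.00809), and Il2rg, a receptor chain shared by several interleukins, rose 1.62-fold (edgeR adjusted p = 0.01005). Ifngr1, a chain of the IFN-γ receptor, had a log2 fold change of 0.24 (edgeR adjusted p = 0.0239). Without control replicate 2 only 1 gene of the list was called higher, and the edgeR adjusted p was 0.05245 for Il6, 0.0644 for Il2rg and 0.1259 for Ifngr1. Ifngr1 also did not pass without Treg-ablated replicate 2 (edgeR adjusted p = 0.0902) or with the replicate block (edgeR adjusted p = 0.1225). The 1 lower gene, Il4ra, a chain of the IL-4 receptor named after its values were seen, was not called in any of the 5 fits that left out 1 library. Among 7 genes of V(D)J recombination and B cell precursors, Il7r, which T cells also express, was the 1 gene tested. It rose 2.395-fold (edgeR adjusted p = 0.009745) and did not pass without control replicate 2 (edgeR adjusted p = 0.0548).

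Of the Fc receptors and transporters, by which cells bind these constant regions, 4 of 10 tested fell and 2 rose, with a median log2 fold change of −0.345. Fcgr1, the high-affinity receptor for IgG2c, fell by 1.14 on the log2 scale from 18.7 ± 1.40 to 8.37 ± 2.34 CPM (SE 0.154, edgeR adjusted p = 0.00101). Fcrls, an Fc receptor-like gene of macrophages and microglia, fell by 1.92 (edgeR adjusted p = 0.00124), and Fcgrt, the neonatal Fc receptor that recycles IgG, fell by 0.36 (edgeR adjusted p = 0.00867). Fcgrt did not pass without control replicate 2 (edgeR adjusted p = 0.0547) or with the replicate block (edgeR adjusted p = 0.0519). Trim21, a receptor for antibody inside the cell, rose 1.52-fold (edgeR adjusted p = 0.00224). The other calls, named after their values were seen, were Fcgr3, a low-affinity IgG receptor, which fell, and Fcer1a, a chain of the mast cell IgE receptor, which rose. The higher calls of this list numbered 1 without Treg-ablated replicate 2 or any 1 control, and the lower calls 2 without control replicate 2. Pigr, which carries IgA and IgM across epithelia, had 0 counts in all libraries and is named after its values were seen.

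**Figure D4:**
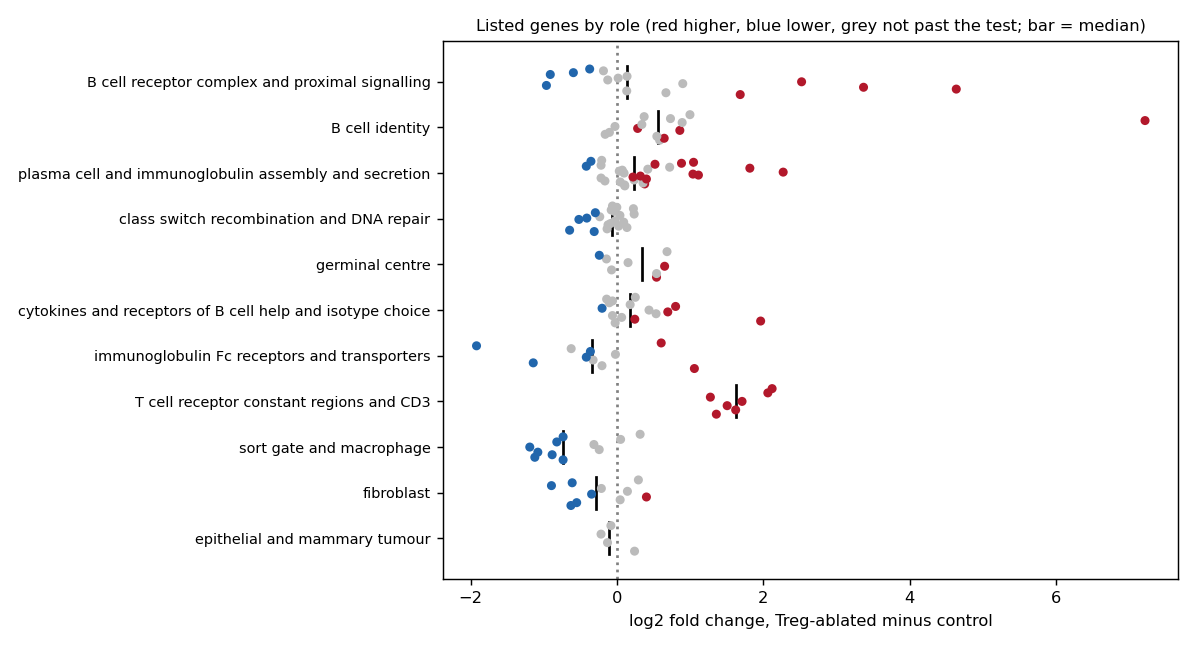
Log2 fold change, Treg-ablated minus control, of each tested gene by list; red points were higher and blue lower at an edgeR adjusted p under 0.05, grey points did not pass, and black bars are list medians. The T cell receptor list is wholly red with a median of 1.62, and the sort gate and macrophage list has 7 blue points of 11.

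Markers of other cells moved alongside. All 7 tested genes of the T cell receptor constant regions and CD3 were higher, with a median log2 fold change of 1.62. Trbc2, a T cell receptor constant region, rose 4.345-fold from 1.02 ± 0.0235 to 4.46 ± 0.516 CPM (edgeR adjusted p = 0.000284). Of 11 sort gate and macrophage genes 7 were lower, with a median of −0.74, and of 10 fibroblast genes 5 were lower and 1, Dcn, was higher. Summed epithelial markers were 255 to 295 CPM after ablation and 288 to 312 CPM in controls. Whether these shifts between cell types have a part in the immunoglobulin values was not tested.

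Genes with the profile closest to Ighm and Igkc were sought over the 5 libraries, among 11576 genes with a mean of at least 1 CPM and no immunoglobulin gene. Likeness is the root mean square difference of centred log2 CPM. For Igkc the nearest was Cd3e, a T cell receptor signalling chain, at 0.08, followed by Apol6 (0.09), Cd96 (0.10), Fst (0.11) and Muc6 (0.11). Cd3e had 4.85 and 5.13 CPM after ablation and 1.68, 1.65 and 1.95 CPM in controls. For Ighm no gene came as close: the nearest was Gzmb, a granzyme of cytotoxic lymphocytes, at 0.46, then Themis, a T cell protein, at 0.49, Lat, Trbc2 and Gpr137c. Profiles of Igha and Ighg2c were added after their values had been seen. The gene nearest to Igha was Prss36, at 0.06, and the one nearest to Ighg2c was Gzmb, at 1.55. Among the genes considered, which leave out all immunoglobulin genes, the profile of Ighg2c thus had no near match. With 5 libraries in 2 groups, these likenesses are a description and say nothing of shared function.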

How the data were processed

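RNA-seq gene counts were used from 2 Treg-ablated and 3 control libraries, grouped and numbered by their titles. The file names number the Treg-ablated libraries differently, so a replicate number is that of the title only. The deposited values are whole-number counts per gene that are not normalized. Per the file headers, the authors made them with featureCounts 1.6.2, counting fragments over exons of a filtered Ensembl 83 annotation of GRCm38. Neither strand nor multi-mapping reads are addressed in the recorded command. The labels describe a stranded kit and 125-base paired reads. FastQC 0.11.5, Trimmomatic 0.33 and DESeq2 1.16.1 are also named, per the submitters' processing notes.

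Symbols were joined by Ensembl identifier (46488 of 46983 genes). The 14580 genes that filterByExpr kept were scaled by TMM. Group was the only term of the quasi-likelihood F test (edgeR 4.0.16, R 4.3.3), and a Benjamini-Hochberg adjusted p under 0.05 was called. CPM are counts over the TMM-scaled library size, times 1e+06. Intervals at 95% are exact (Clopper-Pearson for shares, conditional binomial for ratios), and they and the floor of 3 counts cover counting error only, since reads carried no molecular identifiers. Log2 CPM for profile likeness used a prior count of 2. Exon sequences came from GENCODE M21 (GRCm38), and Iglc2 shares 38 exon bases with Iglj2. The 10 genes, the lists and the tests were chosen with earlier results of these data known. From each list the up to 4 genes with the smallest p are named, except for an item that is not reported here. Others are said to be named after their values were seen. No libraries were duplicates: chi-square over degrees of freedom was 4.17 to 7.71 within groups.

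Alternatives were DESeq2 1.42.0, the replicate number as a block, scaling by RLE or by library size alone, a looser and a stricter filter, leaving out each library in turn, counts per kilobase for shares and a prior count of 0.5. Ighg2a, a gene of other strains, was not analysed here.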

Additional observations from a re-analysis of the deposited data

How the results depend on the processing

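The log2 fold changes of the 8 constant region genes tested kept their sign under every alternative that gave a value. Ighg3 and Iglc2 were not followed through the alternatives. Genes called over all 14580 tested were 1971 higher and 1787 lower, against 1296 and 1116 with the replicate block. Same-numbered libraries by title did not deviate together (r across genes −0.23 and −0.02), and no label says that a number marks a pair. With 2 Treg-ablated libraries, whose deviations mirror each other, this check carries little weight. DESeq2 called 1215 higher over all genes and 14 higher in the 8 antibody lists together. Leaving out 1 library in turn gave 812 to 1687 higher and 554 to 1538 lower over all genes, and 14 to 28 higher and 7 to 16 lower in those lists. The lowest values came without control replicate 2, and 10 lower in the lists without Treg-ablated replicate 2. With 1 Treg-ablated library left, its spread is taken from that of the controls. The low counts of Ighd, Ighg1, Ighg3, Iglc1 and Iglc2 limit how closely their ratios are known.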
